A study of Mus musculus with 21 samples.

Results

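The comparison of day 14 with day 7 of primary culture used 6 of the 21 RNA-seq libraries of the series, 3 of day 14 and 3 of day 7, picked by their labels alone. All held cells of the stromal vascular fraction, the mixed cells that remain once digested fat has been freed of its fat cells, taken from the subcutaneous inguinal depot of C57BL/6J females aged 8 to 12 weeks. Cells of both days had been seeded at 5000 live cells per cm2 on uncoated plastic in a minimal growth medium of IMDM with fetal bovine serum, L-glutamine and 2-mercaptoethanol. Neither group had been passaged, no cell type had been sorted out, and no allele or agent differed between them. The labels do not say whether a replicate number marks an animal, a pool or a culture dish. P-values here therefore reflect only how these libraries vary. The other 15 libraries, from days 0, 3, 21 and 28 and from passaged cells (P1), entered the fit for its estimate of the spread.

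A stromal vascular fraction holds fibroblast-like stromal cells and fat cell precursors, blood vessel cells and immune cells, macrophages among them. The inguinal fat of female mice also surrounds the mammary ducts, whose lining is an epithelium that responds to prolactin and progesterone. On plastic the stromal cells attach, spread and divide, and dense cultures of such cells lay down collagen-rich matrix, which secreted metalloproteinases cut and remodel.

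Gene symbols in the table could be used in only 4 regions and for the mitochondrial genome. The regions held 309 genes on chromosome 4 (3.55 to 59.76 Mb), 116 on chromosome 6 (3.46 to 30.69 Mb), 33 on chromosome 9 (3.34 to 10.90 Mb) and 77 on chromosome 15 (10.18 to 38.30 Mb), in GRCm38 coordinates. Of the 535 protein-coding genes inside these regions 77.9% passed the filter on low values, against 35.2% of 15682 elsewhere. With 13 protein-coding genes of mitochondrial DNA, 548 genes could be named, and 430 of these were tested. Values are given as levels, which were recovered from the deposited log2 values, are scaled between libraries and are not divided by gene length, so that a gene can be compared between libraries but not with another gene. A level of 16 stands for 0 reads and a level of 30 for any low value, so a group at these floors may lie lower than it is written.

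Reads above the floor numbered 3239995 to 3865394 per library at day 14 and 2650232 to 3487493 at day 7, and the full depth is unknown. Day 14 libraries had 4593 to 4765 gene models above the floor, against 5508 to 5575 at day 7. The fewest reads that any gene model above the floor had were 34 to 38 in day 14 libraries and 25 to 33 in day 7 libraries. Across gene models, which are not independent, the libraries of 1 day correlated at 0.951 to 0.962 and those of different days at 0.908 to 0.920. The 10 gene models with the highest levels held 22% to 22.8% of the summed level at day 14 and 15.4% to 16.7% at day 7. In bulk RNA, fewer cells of a type and less RNA per cell cannot be told apart.

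Of 7767 gene models tested with limma, 1888 differed between day 14 and day 7 at an adjusted p under 0.05, which is 24.3%. Of these, 334 (4.30% of those tested) were higher at day 14 and 1554 (20%) were lower. The balance of directions depended on scaling. The median log2 fold change of the 3172 gene models above the floor in every library was -0.31 as deposited, 0.02 after quantile normalization and -0.04 after median scaling, which sets the median gene model equal in all libraries. Quantile normalization called 18.1% of gene models, 712 of them higher (9.17%) and 694 lower (8.94%). Median scaling called 17.8%, of which 646 were higher (8.32%) and 735 lower (9.46%). A fit of the 6 libraries alone called 20.4%, with 282 higher (3.63%) and 1302 lower (16.8%). Day 14 and day 7 libraries did not overlap in 36.9% of gene models, wholly higher at day 14 in 6.48% and wholly lower in 30.4%. A fall of about 0.3 log2 units in a gene is therefore the size of the common shift. Among the 430 genes that could be named, 36 (8.37%) were higher and 134 (31.2%) lower at day 14, with a median log2 fold change of -0.28 beside -0.27 over all tested. For these 430, quantile normalization called 69 higher and 76 lower, and median scaling 75 higher and 69 lower.

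**Figure D1:**
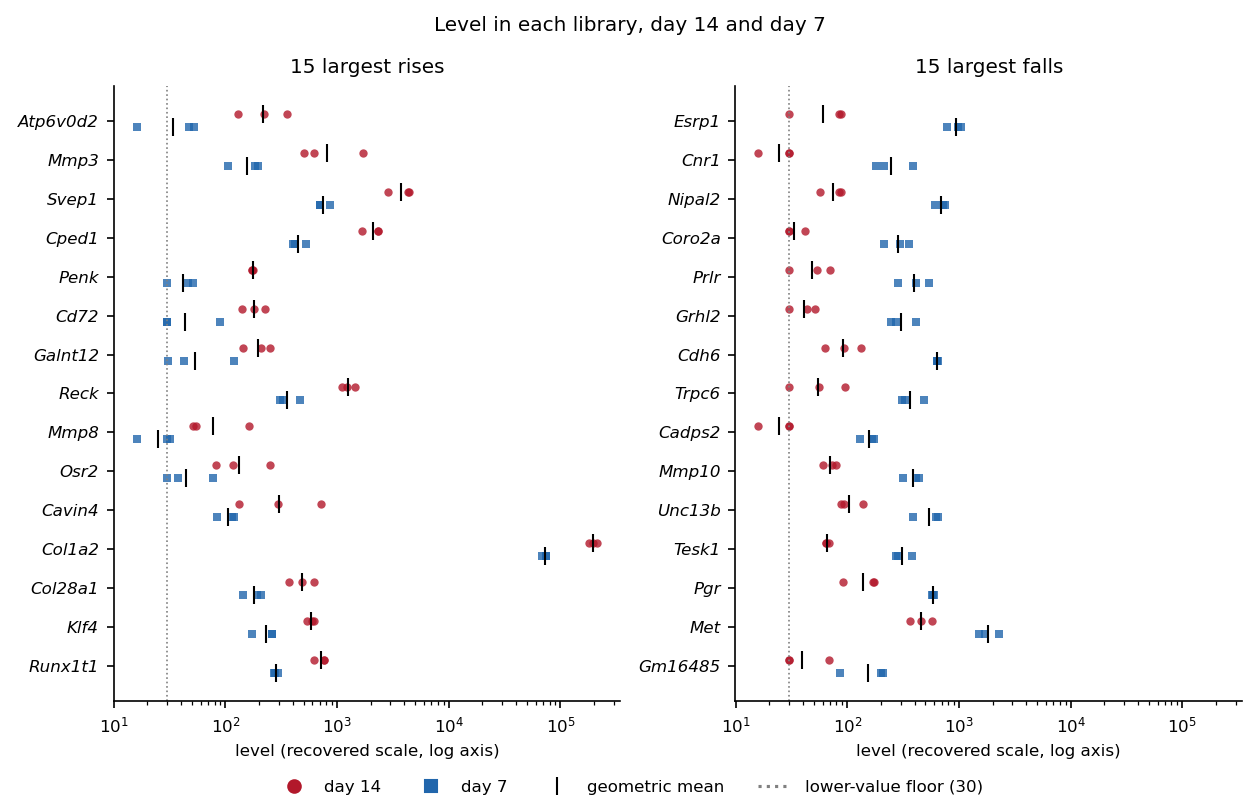
Level in each of the 3 day 14 libraries (circles, upper in each row) and the 3 day 7 libraries (squares, lower) for the 15 named genes with the largest rises and the 15 with the largest falls, on a log axis; black bars are geometric means and the dotted line is the floor at 30. The groups of every gene shown are apart, which the choice of these genes required, and day 14 libraries of Cnr1 and Cadps2 lie on the floors.

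The levels of single libraries are plotted for the genes with the largest changes. Several genes of epithelial cells and of hormone reception were far lower at day 14. Of 16 tested genes in the epithelial and hormone receptor list, 9 fell, 1 rose and 6 were not called, with a median log2 fold change of -1.53. In 6 of the 9 that fell at least 1 day 14 library was on a floor. The list had 9 genes called lower after quantile normalization and 8 after median scaling. Among the 430 genes that could be named these counts were 76 and 69. As deposited, 31.2% of the 430 genes that could be named were lower and 8.37% higher. Members of this and the other lists were chosen with earlier results of these data known, so their counts and medians are descriptive.

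Esrp1 (ENSMUSG00000040728, chr4:11331933-11386783) encodes an epithelial splicing regulator. Its level was 85.1, 30 and 88 at day 14, against 986, 787 and 1048 at day 7. All day 14 libraries lay more than 8-fold below all day 7 libraries, and 1 of them was on the floor. The log2 fold change was -3.94 ± 0.28 (SE, n = 3 per day), or 15.4-fold lower, with a limma adjusted p of 3.44e-08. Grhl2, a transcription factor that maintains epithelial identity, had levels of 30, 43.8 and 51.2 at day 14 and 248, 274 and 414 at day 7 (7.48-fold lower, limma adjusted p 2.46e-07). Coro2a, an actin-binding coronin, had levels of 30, 42.2 and 30 at day 14, against 214, 360.4 and 298 at day 7. In each of these genes 1 or 2 of the day 14 libraries were on the floor and none of the day 7 libraries was.

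Nipal2, a predicted magnesium transporter, was 9.21-fold lower at day 14, with 56.6 to 87.5 against 604 to 744 at day 7. Cadps2, which primes dense-core vesicles for release, was on the floors in all day 14 libraries (30, 30 and 16) and had levels of 130.3, 167 and 175 at day 7. Against the floor of 30 it was at least 5.21-fold lower. Ptpn3, a protein tyrosine phosphatase, fell by 1.61 ± 0.34 log2 units and Rnf19a, a ubiquitin ligase, by 0.59 ± 0.13. The fall of Rnf19a was larger than the common shift of -0.31. It was called after quantile normalization (log2 fold change -0.37, limma adjusted p 0.0265) but not after median scaling (-0.32, adjusted p 0.0679).

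Receptors for prolactin and progesterone fell together with these genes. Prlr had levels of 53.3, 70.3 and 30 at day 14 and 287, 413 and 537 at day 7, a log2 fold change of -3.05 ± 0.49 (limma adjusted p 0.000233). Pgr had levels of 173, 91 and 171 at day 14, against 599, 571 and 589 at day 7, which is 4.22-fold lower (limma adjusted p 0.000394). The day 7 values of Pgr were nearly equal, and its day 14 values spread more widely without reaching them. In the fresh fraction (day 0) the geometric mean level was 37275 for Prlr and 2073 for Pgr.

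Cdh17, an intestinal cadherin, was the gene of the list that rose. Its levels were 30, 48.8 and 30 at day 14, against 16, 30 and 16 at day 7, so the groups overlapped and 5 of the 6 values were floors. The limma adjusted p was 0.0127 and became 0.35 when the lower floor was raised to the upper. Without day 14 replicate 2, day 7 replicate 1 or day 7 replicate 3 it was 0.0638 to 0.0771. The 5 epithelial markers (Esrp1, Grhl2, Cdh17, Aqp3, Prlr) summed to levels above the floor of 138 to 163 per library at day 14 and 1473 to 1998 at day 7. Aqp3 was on the floors at both days and Cdh17 at day 7, and the part of these cells in the other results was not tested.

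Several matrix genes were higher at day 14. Of 16 tested genes in the list of collagens, matrix glycoproteins and their regulators, 10 rose and 2 fell, with a median log2 fold change of 0.80. The counts were the same under both other scalings, and the levels of 11 genes at day 14 lay wholly above those at day 7. As deposited, 8.37% of the 430 genes that could be named rose and 31.2% fell, and 6.48% of all gene models tested lay wholly above. Quantile normalization called 69 of the 430 higher, and median scaling 75.

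Col1a2 (ENSMUSG00000029661, chr6:4504814-4541544) encodes the alpha 2 chain of type I collagen, the main fibrous collagen of connective tissue. Its level was 213095, 178387 and 197445 at day 14, against 68885, 74544 and 73632 at day 7. The lowest day 14 library was more than 2-fold above the highest day 7 library. The log2 fold change was 1.44 ± 0.12 (2.71-fold, limma adjusted p 1.34e-07), and 0.55 after quantile normalization, which pulls the highest gene models of each library together. Col15a1, a collagen of basement membranes, had levels of 485 to 556 at day 14 and 208 to 278 at day 7 (2.16-fold, limma adjusted p 0.0119). Col28a1, a beaded-filament collagen, had levels of 622, 487 and 372 at day 14 and 208, 144 and 192 at day 7 (limma adjusted p 0.0159). Its call was lost without day 14 replicate 1 or day 7 replicate 2, at limma adjusted p values of 0.0629 and 0.0627.

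Svep1, a large extracellular adhesion protein that binds integrins, had levels of 4383, 2830 and 4275 at day 14, against 698, 704 and 855 at day 7. It was 5.02-fold higher, with a log2 fold change of 2.33 ± 0.22 (limma adjusted p 7.54e-07). Cped1, a gene linked to bone density in human and mouse, had levels of 2318, 1674 and 2344 at day 14 and 399, 419 and 524 at day 7, which is 4.70-fold higher (limma adjusted p 7.76e-07). Reck, a membrane-anchored inhibitor of metalloproteinases, had levels of 1227, 1109 and 1436 at day 14, against 325, 305 and 466 at day 7 (3.48-fold, limma adjusted p 0.000105). In all of these genes each day 14 library was more than 2-fold above every day 7 library.

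Smaller rises were seen for Sgce, a sarcoglycan of the cell membrane (2.04-fold), for Cpq, a secreted carboxypeptidase (1.82-fold), and for Sdc2, a heparan sulfate proteoglycan (1.40-fold). Thsd7a, a membrane protein with thrombospondin repeats, was 1.67-fold higher, and its call was lost without day 14 replicate 1 or 3 or day 7 replicate 1 or 2 (limma adjusted p 0.0744 to 0.12) and in the fit of the 6 libraries alone (0.0990). The falls were those of Fam3c and Tfpi2. Fam3c, a secreted cytokine-like protein, had levels of 3832, 3602 and 3700 at day 14 and 12155, 11326 and 13385 at day 7, a log2 fold change of -1.72 ± 0.13 (limma adjusted p 4.38e-08). Tfpi2, a secreted inhibitor of serine proteases in the matrix, had levels of 478 to 581 at day 14 and 1002 to 1279 at day 7 (limma adjusted p 0.000704). The 4 fibroblast markers (Col1a2, Col15a1, Svep1, Osr2) summed to 181817 to 218283 per library at day 14 and 69868 to 75489 at day 7, and nearly all of that sum was Col1a2.

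**Figure D2:**
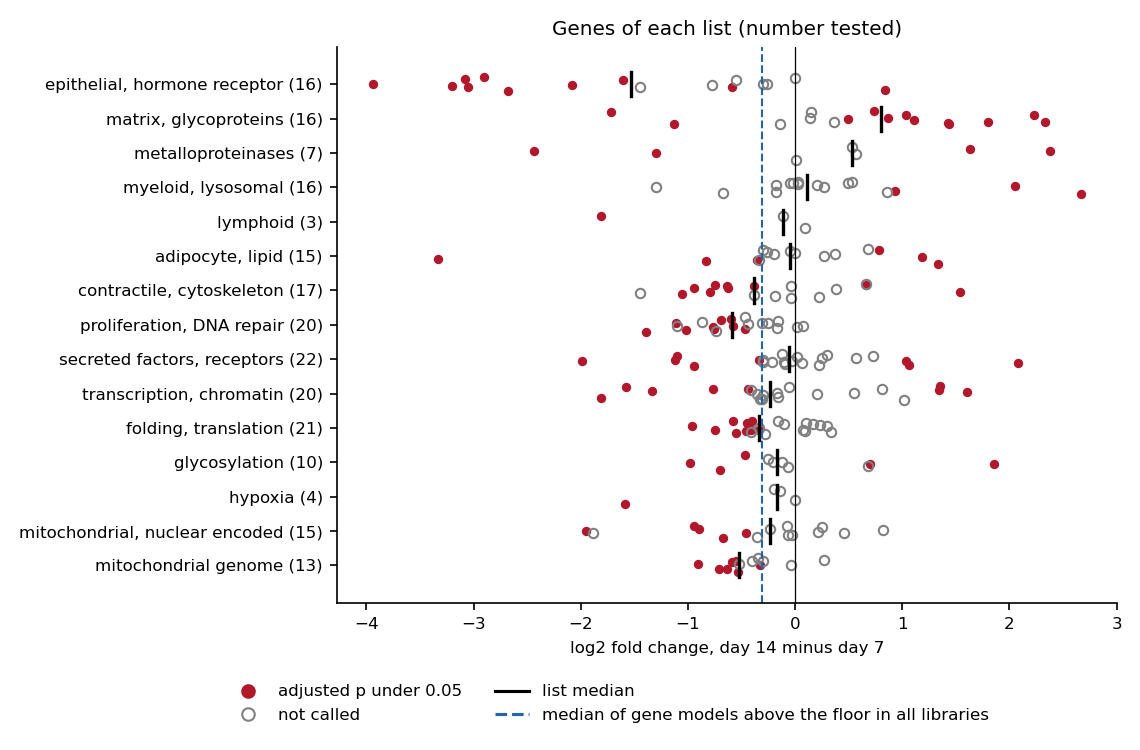
Log2 fold change of day 14 minus day 7 for every tested gene of 15 lists, with filled points for genes called by limma at an adjusted p under 0.05 and open points for the others; black bars are list medians and the dashed line is the common shift of -0.31. Matrix genes lie mostly to the right of that line, epithelial genes mostly to its left, and the median of the folding list (-0.34) close to it, while that of the DNA repair list is lower (-0.59).

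The plot of fold changes by list shows each group beside the common shift. Beside the counts of each list stand the 430 genes that could be named, 31.2% of them called lower and 8.37% higher as deposited. Quantile normalization called 69 of them higher and 76 lower, and median scaling 75 higher and 69 lower. Matrix metalloproteinases, secreted or membrane-bound enzymes that cut collagen and other matrix proteins, moved in opposite directions. Most of those listed lie in 1 cluster on chromosome 9, and Mmp16 is on chromosome 4. Of 7 tested, Mmp3 and Mmp8 rose, Mmp10 and Mmp16 fell and 3 were not called. This split depended on the fit: 4 were higher and 1 lower with quantile normalization, 3 higher and 1 lower with median scaling, and 1 in each direction in the fit of the 6 libraries alone.

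Mmp3, stromelysin 1, and Mmp10, stromelysin 2, are close relatives and neighbours that changed in opposite directions, and Mmp13, collagenase 3, lies in the same cluster. Their promoters are shown because each holds the letters TGANTCA, the motif bound by AP-1, close to the start of the gene. The windows run from 250 bases before to 50 bases after the start and come from RefSeq on GRCm38.p6, all on the plus strand: chr9:7445572-7445871 for Mmp3, chr9:7502092-7502391 for Mmp10 and chr9:7272264-7272563 for Mmp13. Capitals mark the motif, which reads the same on both strands.
Mmp3: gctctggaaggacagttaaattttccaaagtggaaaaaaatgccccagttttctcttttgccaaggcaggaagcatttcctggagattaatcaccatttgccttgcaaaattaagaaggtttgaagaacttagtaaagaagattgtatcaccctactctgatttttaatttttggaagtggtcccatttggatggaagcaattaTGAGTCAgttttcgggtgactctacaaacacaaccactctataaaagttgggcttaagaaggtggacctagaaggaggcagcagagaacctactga
Mmp10: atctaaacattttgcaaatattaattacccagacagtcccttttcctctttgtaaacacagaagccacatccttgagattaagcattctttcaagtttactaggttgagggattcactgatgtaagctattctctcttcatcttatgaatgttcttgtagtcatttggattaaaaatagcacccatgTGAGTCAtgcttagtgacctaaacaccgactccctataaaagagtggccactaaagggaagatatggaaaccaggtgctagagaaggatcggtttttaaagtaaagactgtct
Mmp13: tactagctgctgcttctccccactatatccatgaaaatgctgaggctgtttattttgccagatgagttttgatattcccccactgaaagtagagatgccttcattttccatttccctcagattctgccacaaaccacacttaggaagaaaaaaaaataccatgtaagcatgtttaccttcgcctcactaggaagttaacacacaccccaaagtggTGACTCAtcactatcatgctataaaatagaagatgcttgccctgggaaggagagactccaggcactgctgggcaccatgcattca
The motif begins 46 bases before the start of Mmp3, 63 before that of Mmp10 and 35 before that of Mmp13. It occurs in 7.81% of 32851 promoter windows of the same length in the table. The windows of Mmp8 and Mmp27 held no match, and of the 2 windows of Mmp12 1 held it. A match is a description of the letters, not a site shown to be bound.

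Mmp3 had levels of 620.3, 507 and 1709 at day 14, against 106, 194 and 184 at day 7. The third day 14 library stood well above the other two, and all were above the day 7 range. The log2 fold change was 2.38 ± 0.36, or 5.22-fold, with a limma adjusted p of 0.000146. Mmp10 had levels of 60.4, 72.8 and 79.9 at day 14 and 318, 435 and 411 at day 7, which is 5.44-fold lower (limma adjusted p 3.14e-05). Mmp13 had levels of 831, 1011 and 461 at day 14, against 697, 699 and 771 at day 7, so that the groups overlapped (log2 fold change 0.01 ± 0.37).

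Mmp8, neutrophil collagenase, was low, with 50.9, 161 and 54.8 at day 14 and 30, 16 and 31.7 at day 7 (limma adjusted p 0.00787, and 0.133 in a fit of the 6 libraries alone). Mmp16, a membrane-bound metalloproteinase, had levels of 51.3 to 88.3 at day 14 and 111 to 252 at day 7 (limma adjusted p 0.0333). Its adjusted p was 0.185 after quantile normalization, 0.0953 after median scaling, 0.0866 in the fit of the 6 libraries alone, and 0.0696 to 0.141 without day 14 replicate 2 or 3 or day 7 replicate 2 or 3. Mmp12, macrophage elastase, had levels of 1530 to 2226 at day 14 and 1065 to 1492 at day 7. With a log2 fold change of 0.53 ± 0.23 it was not called (limma adjusted p 0.111). It was called after quantile normalization (0.77, adjusted p 0.0202) and median scaling (0.80, adjusted p 0.0124).

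Myeloid and lysosomal genes were mixed. Of 16 tested, 3 rose, none fell and 13 were not called, with a median log2 fold change of 0.12. The rises numbered 6 after quantile normalization and 7 after median scaling. Under these scalings 69 and 75 of the 430 genes that could be named rose. As deposited, 8.37% of the 430 genes that could be named rose and 31.2% fell. Atp6v0d2, a subunit of the lysosomal proton pump that is abundant in osteoclasts and macrophages, had levels of 220.3, 359 and 130.2 at day 14, against 52.4, 16 and 47.5 at day 7. It was 6.37-fold higher (log2 fold change 2.67 ± 0.42, limma adjusted p 0.000187). In 1 day 7 library it had no reads, and the log2 fold change was 2.37 with the lower floor raised to the upper and 2.12 without that library, day 7 replicate 2. Cd72, a surface receptor of B cells and some myeloid cells, had levels of 142, 224 and 181 at day 14 and 90.1, 30 and 30 at day 7 (limma adjusted p 0.000393). In a fit of the 6 libraries alone the adjusted p values were 0.0505 for Atp6v0d2 and 0.0590 for Cd72.

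Exons of Cd72 overlap those of Tesk1, a kinase of actin regulation, on the opposite strand, and the library kit does not mark strand. Tesk1 moved the other way, with levels of 69.2, 64.5 and 64.6 at day 14 and 274, 377 and 282 at day 7 (4.66-fold lower, limma adjusted p 0.00329). Otulinl, a relative of the deubiquitinase Otulin, had levels of 332, 597 and 352 at day 14 and 206 to 225 at day 7. Its limma adjusted p was 0.0228, and 0.0527 to 0.127 without day 14 replicate 2 or day 7 replicate 2 or 3. In the fit of the 6 libraries alone it was 0.0709. Lyn, a kinase of blood cells, had levels of 1014 to 1490 at day 14 and 1089 to 1321 at day 7, and Tfec, a macrophage transcription factor, 107 to 125 and 64.5 to 132. The day 14 and day 7 libraries of both genes overlapped.

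The 6 macrophage or osteoclast markers (Atp6v0d2, Tfec, Lyn, Cd72, Mmp12, Otulinl) summed to 3322 to 5003 per library at day 14 and 2646 to 3180 at day 7. Most of each sum was Lyn and Mmp12, neither of them called as deposited. The part of these cells in the other results was not tested. Casp12, an inflammatory caspase, had levels of 1144 to 1313 at day 14 and 808 to 1048 at day 7 (log2 fold change 0.49 ± 0.18, limma adjusted p 0.0531), and was called after both other scalings.

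Of the lymphoid list 3 of 7 genes were tested. Bach2, a transcription repressor of lymphocytes, fell, with levels of 58.8, 30 and 41.3 at day 14, against 116, 188 and 145 at day 7 (limma adjusted p 0.00596). The defining lymphocyte genes Pax5 and Sit1 were at the floor in all 6 libraries.

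**Figure D3:**
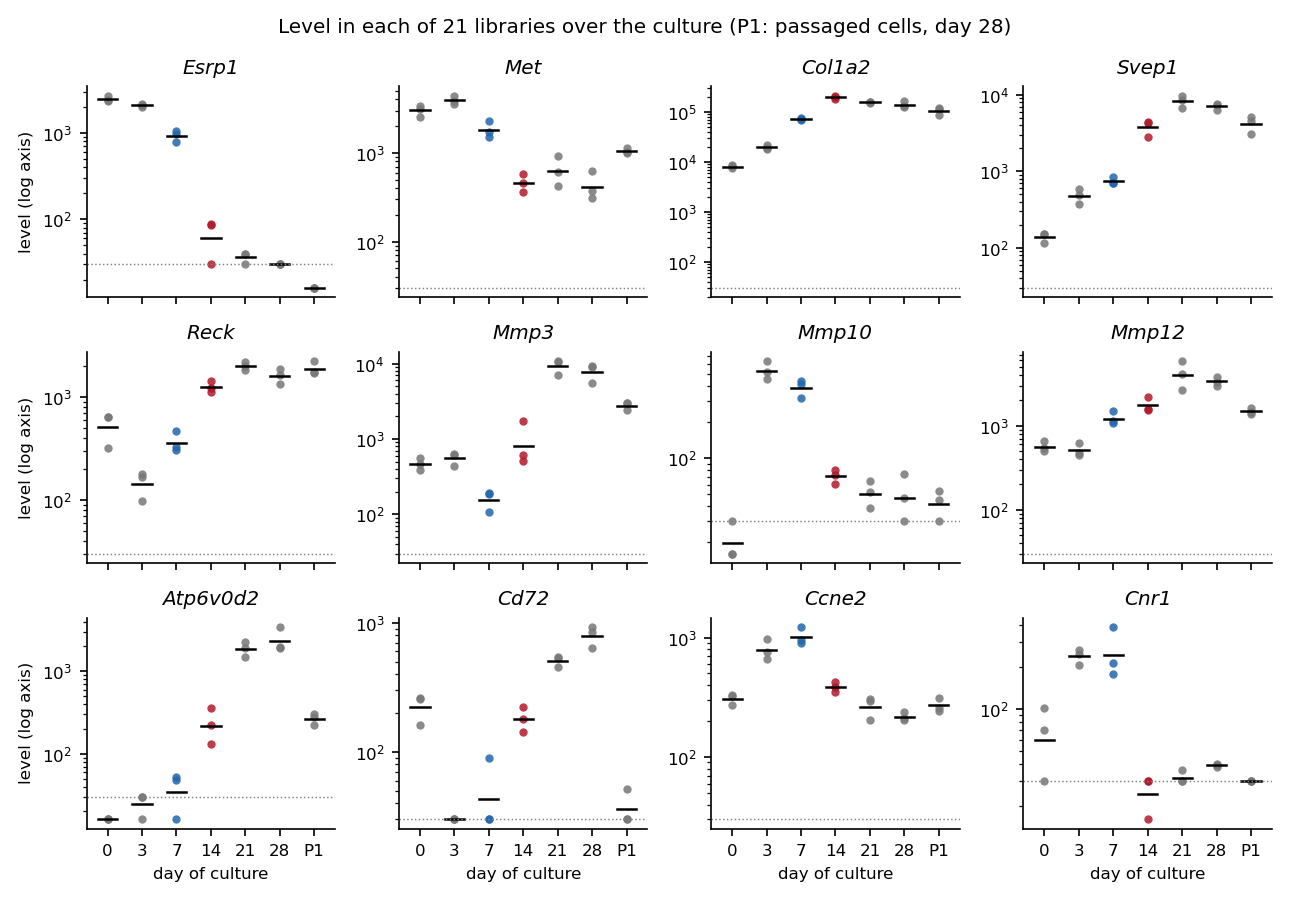
Level in each of the 21 libraries for 12 genes over days 0 to 28 of primary culture and in passaged cells (P1), on log axes; points are libraries, bars are geometric means, day 7 is blue and day 14 red, and the dotted line is the floor at 30. Between day 7 and day 14 Esrp1, Met, Mmp10, Ccne2 and Cnr1 lie lower at the later day and Col1a2, Svep1, Reck, Mmp3, Atp6v0d2 and Cd72 lie higher.

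The courses over the whole culture place the changes of the second week among the other days. Geometric mean levels of Mmp3 were 464, 556, 156, 813, 9323 and 7732 from the fresh fraction to day 28, in the order of the sampled days. Day 7 was thus the lowest of these days for Mmp3. Those of Atp6v0d2 were 16, 24.3, 34.1, 218, 1853 and 2347, so the day 14 level was early in a longer climb. Col1a2 had its highest mean at day 14, with 8075, 19652, 72311, 195791, 155321 and 139367 over the same 6 days. Mmp10 had 19.7, 531, 384, 70.6, 50.4 and 46.8, and Cnr1, low in the fresh fraction, had 238, 244, 24.3, 32 and 39.2 from day 3 on. Both were highest at days 3 and 7 and low by day 14. Adjacent steps of a course share libraries and were not tested against each other here.

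Genes of the contractile apparatus, adhesion sites and caveolae had a median log2 fold change of -0.38, near the common shift. Of 17 tested, 7 fell, 2 rose and 8 were not called. Quantile normalization called 3 higher and 5 lower and median scaling 4 higher and 5 lower, each with a median of -0.11. The same scalings called 69 and 75 of the 430 genes that could be named higher, and 76 and 69 lower. As deposited, 31.2% of the 430 genes that could be named were lower and 8.37% higher. Tpm2, a tropomyosin that covers actin filaments, had levels of 13177, 12448 and 10907 at day 14, against 24058, 22532 and 23379 at day 7 (log2 fold change -0.94 ± 0.12, limma adjusted p 2.89e-05). Tes, a protein of focal adhesions, was 2.08-fold lower, with 3905 to 4737 at day 14 and 8488 to 9214 at day 7. Tln1, talin, which couples integrins to actin, had levels of 10149, 9371 and 9106 at day 14 and 14758, 14042 and 15607 at day 7 (log2 fold change -0.63 ± 0.06, limma adjusted p 1.52e-06). The spread within each day was small for these genes, and no day 14 library reached the day 7 range.

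Cav1 and Cav2, which coat the membrane pits called caveolae, fell by 0.64 ± 0.16 and 0.75 ± 0.13 log2 units. The call of Cav1 was lost after either other scaling (limma adjusted p 0.0583 and 0.142). Cavin4, a muscle protein of caveolae, rose, with levels of 133, 709.9 and 295 at day 14 and 84, 118 and 115 at day 7 (limma adjusted p 0.0286). The second day 14 library was far above the others, and without it the log2 fold change was 0.92 instead of 1.54, with an adjusted p of 0.169. The call was also lost without day 14 replicate 3 or any day 7 library (adjusted p 0.0509 to 0.0952) and in a fit of the 6 libraries alone (0.199). Rai14, an actin-bundle protein, rose by 0.66 ± 0.11 log2 units (limma adjusted p 0.000257). Flnc, a filamin of muscle, had levels of 3975 to 4170 at day 14 and 4055 to 4347 at day 7. The 4 muscle markers (Cavin4, Lmod2, Flnc, Musk) summed to 4302 to 4842 at day 14 and 4173 to 4524 at day 7, and most of that sum was Flnc.

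In the list of cell division and DNA repair genes, 9 of 20 fell, 11 were not called and none rose. Of the 430 genes that could be named, 31.2% fell and only 8.37% rose, so the lack of rises says little. The 9 that fell and the 11 not called had a median log2 fold change of -0.59, and 4 were called lower after either other scaling. Quantile normalization called 76 of the 430 lower, and median scaling 69. The 9 include the RNA-processing genes Exosc3 (-0.47) and Pop1 (-0.76), which are not genes of division or DNA repair. Calls were lost without single libraries for Casp8ap2 (limma adjusted p 0.061 to 0.101), Pop1 (0.0705 to 0.162) and Rad1 (0.0594). These genes and Exosc3 were also not called after either other scaling. Ccne2, cyclin E2, which drives entry into DNA synthesis, had levels of 384, 352 and 426 at day 14 and 1220, 891 and 958 at day 7 (2.62-fold lower, limma adjusted p 2.24e-05). Smc2, a core subunit of condensin, had levels of 627 to 811 at day 14 and 1336 to 1586 at day 7, a log2 fold change of -1.02 ± 0.26. Topors, a ubiquitin and SUMO ligase, fell by 0.69 ± 0.10 log2 units, and Mms22l, a replication fork repair protein, by 1.11 ± 0.27. Smc2 was not called after quantile normalization, nor Mms22l in the fit of the 6 libraries alone (adjusted p 0.0986). The mitotic kinase Melk had levels of 213, 188 and 292 at day 14 and 465, 312 and 489 at day 7, so its groups did not overlap, but its limma adjusted p was 0.0694.

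Secreted factors and receptors changed in both directions, with 3 of 22 higher, 5 lower and 14 not called (median log2 fold change -0.06). The balance turned with scaling, since quantile normalization called 5 higher and 3 lower, and median scaling 5 higher and 2 lower. Under these scalings 69 and 75 of the 430 genes that could be named were higher, and 76 and 69 lower. Of the 430 genes that could be named, 8.37% were higher and 31.2% lower as deposited. Penk, the precursor of enkephalin peptides, had levels of 177, 174 and 173 at day 14, against 30, 46 and 51.2 at day 7 (4.22-fold, limma adjusted p 0.000858). The day 14 libraries were within a few units of each other. Il11ra1, a receptor subunit for interleukin 11, had levels of 1954, 1910 and 1850 at day 14 and 809.9, 986 and 957 at day 7 (2.08-fold, limma adjusted p 1.13e-05). Mouse genomes hold near-identical copies of this gene, so its reads may be shared with them. Sema5a, a guidance factor, was 2.04-fold higher, but its call was lost without any 1 library other than day 7 replicate 2 (limma adjusted p 0.0628 to 0.191) and in the fit of the 6 libraries alone (0.0913).

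Met (ENSMUSG00000009376, chr6:17463800-17573980), the receptor for hepatocyte growth factor, had levels of 578, 362 and 457 at day 14, against 1716, 1525 and 2269 at day 7. It fell by 1.99 ± 0.27 log2 units (3.96-fold lower, limma adjusted p 4.71e-05). Tspan12, a co-receptor of Norrin and Wnt signalling, had levels of 689 to 923 at day 14 and 1618 to 1777 at day 7 (limma adjusted p 5.58e-05). For both genes the highest day 14 library was well under the lowest day 7 library. Gdf6, a bone morphogenetic protein, had levels of 408 to 620.4 at day 14 and 869 to 1152 at day 7 (limma adjusted p 0.0143). Without day 14 replicate 2 or day 7 replicate 1 its adjusted p was 0.0681 and 0.0648. Gdf6 was not called after median scaling (log2 fold change -0.67, limma adjusted p 0.0693) but was after quantile normalization (-0.65, adjusted p 0.0286).

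Among transcription factors and chromatin proteins 3 of 20 rose, 5 fell and 12 were not called, with a median log2 fold change of -0.23. The counts were 6 higher and 4 lower with quantile normalization, and 4 in each direction with median scaling. Among the 430 genes that could be named they were 69 higher and 76 lower, and 75 higher and 69 lower. Of the 430 genes that could be named, 8.37% were higher and 31.2% lower as deposited. Klf4, a zinc finger factor, had levels of 621, 599 and 534 at day 14 and 261, 174 and 263 at day 7 (2.55-fold, limma adjusted p 4.96e-05). Runx1t1, a corepressor, had levels of 766, 623 and 769 at day 14 and 273, 297 and 279 at day 7 (2.53-fold, limma adjusted p 2.68e-05). Osr2, a factor of mesenchyme and limb development, had levels of 248, 116 and 82.6 at day 14 and 76.7, 30 and 37.3 at day 7. Its limma adjusted p was 0.00319, and 0.139 in a fit of the 6 libraries alone.

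Chd7, a chromatin remodeller, had levels of 142, 175 and 135 at day 14 and 429, 539 and 391 at day 7, which is 3.00-fold lower (limma adjusted p 0.00101). Dlx5, a homeobox factor of bone formation, was on the floor of 30 in all day 14 libraries and had levels of 91.3, 71 and 68 at day 7. It was at least 2.54-fold lower (limma adjusted p 8.85e-06). Klf10, an early target of TGF-beta, fell by 0.77 ± 0.10 log2 units (limma adjusted p 2.35e-05). Mdfic, an inhibitor of MyoD family factors, had levels of 1805 to 1956 at day 14 and 1167 to 1381 at day 7. The groups did not overlap, but the limma adjusted p was 0.0708, and 0.0129 and 0.00761 after the other scalings.

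Fat cell and lipid genes numbered 15 tested, of which 3 rose, 3 fell and 9 were not called, with a median log2 fold change of -0.05. This even count held only as deposited, since 5 were higher and 2 lower with quantile normalization, and 6 higher and 2 lower with median scaling. The same scalings called 69 and 75 of the 430 genes that could be named higher, and 76 and 69 lower. Of the 430 genes that could be named, 8.37% were higher and 31.2% lower as deposited. Abca1, which exports cholesterol, had levels of 2399, 2190 and 2473 at day 14, against 883, 980.0 and 950.2 at day 7 (2.51-fold, limma adjusted p 2.45e-05). C1qtnf3, a secreted adipokine, had levels of 1764, 2361 and 1823 at day 14 and 599, 799 and 1374 at day 7 (limma adjusted p 0.00684, and 0.0872 in a fit of the 6 libraries alone). Lpar1, a receptor for lysophosphatidic acid, rose by 0.78 ± 0.16 log2 units (limma adjusted p 0.00212). No day 14 library of these 3 genes reached down to its day 7 range.

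Cnr1 (ENSMUSG00000044288, chr4:33924593-33948831), the cannabinoid receptor 1, had levels of 30, 16 and 30 at day 14, all on the floors, and 212, 179 and 386 at day 7. It was at least 8.15-fold lower (limma adjusted p 3.90e-06). Hsdl2, a peroxisomal dehydrogenase, was 1.77-fold lower (limma adjusted p 2.23e-05), and Pon2, a lactonase, fell by 0.36 ± 0.08 log2 units, which is the size of the common shift. Lep was on the floors in all 6 libraries, and Aqp7, the glycerol channel of fat cells, was above them only in 1 day 7 library, at 32.6.

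The mitochondrial genome encodes subunits of the respiratory chain. Its 13 protein-coding genes held 7.99%, 9.19% and 9.54% of the summed level in day 14 libraries and 10.6%, 11.9% and 10.4% in day 7 libraries. Of the 13, 7 were called lower and 6 were not called, with a median log2 fold change of -0.52. The result depended on scaling, since quantile normalization called 4 lower, and median scaling 2 lower and 1 higher. Under these scalings 76 and 69 of the 430 genes that could be named were lower. As deposited, 31.2% of the 430 genes that could be named were lower.

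mt-Cytb, of complex III, had levels of 35493, 39068 and 40616 at day 14 and 59312, 67455 and 61004 at day 7 (log2 fold change -0.71 ± 0.16, limma adjusted p 0.0047). mt-Nd4l, of complex I, had levels of 425, 466 and 534 at day 14 and 877, 964 and 823 at day 7 (1.87-fold lower, limma adjusted p 0.000844). Of the 7, mt-Nd4l was the one called lower under both other scalings. mt-Co1, of complex IV, had levels of 51570, 55436 and 60378 at day 14 and 74947, 87950 and 79556 at day 7 (log2 fold change -0.53 ± 0.18, limma adjusted p 0.0366). Its log2 fold change was -1.11 after quantile normalization and -0.27 after median scaling, and its call was lost without any 1 of the 6 libraries (adjusted p 0.0532 to 0.117).

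Calls were also lost without single libraries for mt-Nd4 (adjusted p 0.0571 and 0.0789, without day 14 replicate 1 and day 7 replicate 2), mt-Nd6 (0.0504 to 0.104, without any library other than day 7 replicate 3) and mt-Atp8 (0.058 to 0.168, without day 14 replicate 1 or 2 or day 7 replicate 1 or 2). The genes of this one genome did not move alike. mt-Co3 had levels of 31138 to 35346 at day 14 and 31877 to 37988 at day 7, and mt-Nd3 had 696 to 777 at day 14 and 455 to 795 at day 7. The days overlapped in both genes, and their log2 fold changes were -0.04 ± 0.12 and 0.27 ± 0.20.

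**Figure D4:**
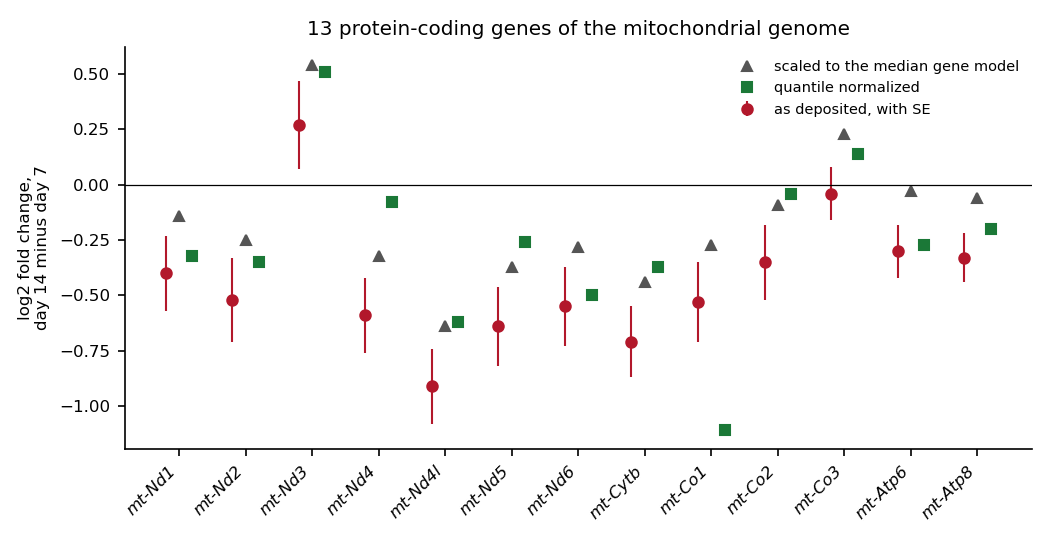
Log2 fold change of day 14 minus day 7 for the 13 proteins that mitochondrial DNA encodes, as deposited (circles, bars are the SE of the limma fit with 3 libraries per day), after median scaling (triangles) and after quantile normalization (squares). As deposited, 12 of the 13 lie below 0, from -0.04 to -0.91, and mt-Nd3 lies above at 0.27; mt-Co3 lies above 0 under both other scalings.

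Nuclear genes of mitochondria gave 5 falls, no rise and 10 genes not called of 15, with a median log2 fold change of -0.23. Quantile normalization called 4 higher and 3 lower, and median scaling gave the same counts. Among the 430 genes that could be named they called 69 and 75 higher, and 76 and 69 lower. The share that fell as deposited was near that of the 430 genes that could be named (31.2% lower, 8.37% higher). Slc25a13, the aspartate and glutamate carrier of the inner membrane, had levels of 228, 304 and 361 at day 14, against 1148, 1118 and 1119 at day 7 (log2 fold change -1.95 ± 0.24, limma adjusted p 1.62e-05). Ndufaf4 and Ndufaf6, assembly factors of complex I, were 1.92-fold and 1.87-fold lower (limma adjusted p 0.000237 and 0.000884). These were the falls that were called under both other scalings, while those of Coq3 and Tomm5 were not.

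Genes of protein folding and translation had a median log2 fold change of -0.34, close to the common shift, though single genes fell further. Of 21 tested, 9 were called lower and none higher. For 13 the day 14 libraries lay wholly below those of day 7, as they did for 30.4% of all gene models tested. Quantile normalization called 3 higher and 5 lower, and median scaling 5 higher and 3 lower. The same scalings called 69 and 75 of the 430 genes that could be named higher, and 76 and 69 lower. As deposited, 31.2% of the 430 genes that could be named were lower and 8.37% higher. Txn1, thioredoxin, had levels of 5420, 4578 and 4860 at day 14 and 8575, 8945 and 7541 at day 7 (1.69-fold lower, limma adjusted p 1.28e-05). Cct5, a subunit of the chaperonin that folds actin and tubulin, was 1.95-fold lower (limma adjusted p 0.0142, and 0.0512 without day 14 replicate 3). Vcp, an ATPase of protein extraction from the endoplasmic reticulum, had a log2 fold change of -0.55 ± 0.08 as deposited and -0.10 after quantile normalization, where it was not called. Ywhaz, a 14-3-3 protein, had -0.46 ± 0.08 as deposited, -0.19 after median scaling and 0.02 after quantile normalization, so its direction depended on the scaling.

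Glycosylation enzymes gave 2 rises and 3 falls among 10 tested, with a median log2 fold change of -0.17. With quantile normalization 2 were higher and 1 lower, and with median scaling 3 were higher and 1 lower. Under these scalings 69 and 75 of the 430 genes that could be named were higher, and 76 and 69 lower. The share that fell as deposited was near that of the 430 genes that could be named (31.2% lower, 8.37% higher). B4galt1, a galactosyltransferase of the Golgi, had levels of 6394, 5708 and 5724 at day 14 and 3602, 3306 and 4054 at day 7 (1.63-fold, limma adjusted p 4.67e-05). Galnt12, which starts O-linked chains, had levels of 208, 144 and 249.6 at day 14 and 119, 42.8 and a value just above the floor at day 7 (limma adjusted p 0.00770, and 0.102 in a fit of the 6 libraries alone). Pigo, an enzyme of membrane anchor synthesis, was 1.97-fold lower. Of 4 hypoxia-linked genes, Car9, a carbonic anhydrase induced by low oxygen, fell, with levels of 30, 101 and 83.5 at day 14 and 209, 161 and 207 at day 7 (limma adjusted p 0.00448, and 0.109 in a fit of the 6 libraries alone). The others, Car8, Hilpda and Pdk4, were not called.

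Several of the largest falls lay outside these lists. Cdh6, a cadherin of kidney and neural cells, had levels of 93.8, 132 and 63.7 at day 14, against 653, 631 and 629.8 at day 7 (6.89-fold lower, limma adjusted p 6.58e-06). Unc13b, which primes vesicles for fusion, had levels of 87.1 to 137 at day 14 and 384 to 654 at day 7 (5.20-fold lower, limma adjusted p 8.76e-06). Trpc6, a cation channel of the cell membrane, had levels of 96.2, 56.3 and 30 at day 14 and 488, 328 and 307 at day 7 (limma adjusted p 0.00186). The groups of all 3 genes were far apart. Gm16485, which lies just beyond Pgr on chromosome 9, fell as well (limma adjusted p 0.00180, and 0.0716 in a fit of the 6 libraries alone).

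Counted by presence rather than by fold, 333 gene models (4.29% of those tested) were above the floor in every day 7 library and in no day 14 library, and 53 (0.682%) the reverse. These counts rest on the deposited scaling, in which the common shift is downward. To pass the floor took at least 34 to 38 reads in day 14 libraries and 25 to 33 in day 7 libraries. Among genes that could be named, 6 were above the floor in every day 7 and no day 14 library, and none the reverse. These were Cnr1, Cadps2, Dlx5, Lingo2, Slc26a7 and Trim14, of which the last lay only just above the floor at day 7 (31.7, 32.4 and 38.2). Lingo2, a leucine-rich membrane protein, had levels of 73.1, 85.7 and 103 at day 7, and Slc26a7, an anion transporter, 32.9, 71 and 94.1. Of the 163 nuclear genes that could be named and were called, 41 had exons overlapping a gene on the opposite strand. Esrp1, Grhl2, Nipal2, Coro2a, Cped1, Svep1, Penk, Tln1 and Il11ra1 were among them. Reads from the stretch that such a pair shares cannot be told apart without strand. In 7 of the 163, Prlr among them, exons overlapped another gene on the same strand, where strand would not help.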

How the data were processed

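RNA of 15 ng per sample was amplified with a SMART-Seq HT PLUS kit, which does not mark strand, per the labels' protocols. The build was GRCm39 per the submitters' processing notes. How reads were aligned, counted, annotated and scaled was not given in the sources used here. Values deposited by the authors are log2: they cover 30961 gene models, and those of a gene model sum to 0 over the 21 libraries. Repeated lowest values mark floors at 16 and 30, from which levels of 30466 gene models were recovered; 493 had a single value in all libraries and 2 stayed unresolved. Of 14244 values under 200 in gene models with both floors, 100.0% were whole reads within 0.1. Reads under the floor are missing, so a count test was left out.

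Levels above 30 in at least 3 of 21 libraries were required. The log2 levels entered limma 3.58.1 (R 4.3.3; Python 3.11.15, numpy 2.4.6, pandas 2.3.3) with an intensity trend, all 7 groups and Benjamini-Hochberg adjustment over all gene models tested. Fold changes carry no pseudocount. The fit was tried on simulated data without a common shift. Of 50 gene models raised by 1 log2 unit 40 were called, and of 50 lowered by 1 unit 32. At 2 units 45 of 50 were called in each direction, and 6 of 7201 unchanged gene models were called. Changes were placed only in gene models well above the floor, so the trial does not cover genes near it.

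Gene names are the symbols of the deposited values. Coordinates and gene types were taken from GENCODE M21 (GRCm38), in which 28955 identifiers were found, and no coordinates were converted. For 26 of the 548 genes that could be named the symbol there differed. Named were the 15 largest rises and falls without overlap between days and the genes of 15 lists; genes lost to the floors were added after their values were seen. The members and lists were chosen with earlier results of these data known. Other scalings, filters, floors and sets of libraries and a replicate block were tried.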

Additional observations from a re-analysis of the deposited data

How the results depend on the processing

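The number of gene models called in either direction was 1888 and stayed within 1.5 times that under each alternative other than a replicate block on the 6 libraries alone, while the balance of directions depended on scaling. Quantile normalization gave 712 higher and 694 lower, and scaling to the median gene model 646 higher and 735 lower, against 334 and 1554 as deposited. Leaving out 1 library at a time gave 1378 to 1655 calls, 268 to 299 of them higher and 1104 to 1387 lower. A replicate block in the fit of the 6 libraries alone left 488 calls, 92 higher and 396 lower, and with a replicate block over all libraries 1815 calls were made. Deviations of same-numbered libraries correlated at 0.052, 0.017 and -0.081, each under the 0.1 taken here as a sign of pairing, so the libraries were not treated as pairs; what the numbers mark is unknown, and single genes such as Ndufa5 did follow them. Of 101 genes called by the naming rule, 25 were called under every alternative and 79 without each single library in turn; 24 were not called after quantile normalization, 29 after scaling to the median gene model, 21 in the fit of the 6 libraries alone, 19 without the filter on low values and 70 with the replicate block in those 6 libraries. Signs turned for Ywhaz (0.02 after quantile normalization), Flnc (0.10 after quantile normalization, 0.23 after scaling to the median gene model) and mt-Co3 (0.14 and 0.23). Without single libraries the log2 fold change ranged from -0.10 to 0.18 for Lyn, -0.22 to 0.35 for Mmp13, -0.12 to 0.40 for Tfec and -0.09 to 0.04 for mt-Co3, none of which was called. The cause was not tested. The floors hide changes between low levels, and the fewest reads above the floor were more in day 14 than in day 7 libraries.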

Other observations

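Ndufa5, a subunit of complex I, switched between libraries within a day. Its levels were 16, 912 and 16 at day 14 and 16, 1077 and 16 at day 7. Cox6c, of complex IV, had levels of 1361, 30 and 1229 at day 14 and 1326, 1520 and 1277 at day 7. Neither gene was called.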
